A study of Mus musculus with 6 samples.

Results

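The genes described here are 8 direct transcriptional targets of the tumour suppressor p53, namely Cdkn1a, Mdm2, Ccng1, Phlda3, Plk2, Trp53inp1, Sesn1 and Btg2. They were taken by gene symbol from the 45777 genes of the deposited table, and all 8 were among the 20354 genes that passed the filter on low counts. RNA sequencing was done on cultured dorsal root ganglion (DRG) neurons, the sensory neurons beside the spinal cord, from wild-type C57BL/6 mice labelled as female adults of 8 weeks. The 3 PBS libraries are the negative control, and the 3 ONCM libraries come from cultures kept for 12 hours with 100 ng/ml recombinant oncomodulin, a calcium-binding protein related to parvalbumin. The labels call the libraries biological replicates without naming separate cultures or animals, so p-values measure the spread between these libraries, which may be technical.

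p53 is a transcription factor that is held at a low level by the ubiquitin ligase Mdm2 and accumulates after DNA damage and other stresses. It binds pairs of a degenerate 10-base motif and raises genes that stop the cell cycle, repair DNA, adjust metabolism or start apoptosis. In peripheral neurons p53 is known for its part in death after loss of trophic support, and it has also been linked to neurite outgrowth and axon regeneration. Many of its targets are induced by other factors as well.

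The short stretches of promoter that bear on these genes are shown here because 2 members share a p53 site and had different responses. The 250 bases before each RefSeq transcription start (GRCm38.p6) were searched for the p53 full site, which is a pair of adjoining 10-base p53 motifs, with at most 1 mismatch over its 20 bases. Only 25 of 32851 such windows (0.0761%) held it, and the table gave 9 windows for 7 of the 8 members (none for Trp53inp1), of which 2 did, those of Cdkn1a at its upstream start and of Ccng1. Capitals mark the full site and, in Cdkn1a, also a single exact 10-base motif. The windows lie at chr17:29090729-29090978 on the + strand for Cdkn1a and at chr11:40755287-40755536 on the - strand for Ccng1.
Cdkn1a: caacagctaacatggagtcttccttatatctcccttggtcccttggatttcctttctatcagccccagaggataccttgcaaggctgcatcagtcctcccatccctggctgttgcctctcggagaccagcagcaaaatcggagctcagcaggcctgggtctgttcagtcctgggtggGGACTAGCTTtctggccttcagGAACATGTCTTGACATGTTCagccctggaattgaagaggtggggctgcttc
Ccng1: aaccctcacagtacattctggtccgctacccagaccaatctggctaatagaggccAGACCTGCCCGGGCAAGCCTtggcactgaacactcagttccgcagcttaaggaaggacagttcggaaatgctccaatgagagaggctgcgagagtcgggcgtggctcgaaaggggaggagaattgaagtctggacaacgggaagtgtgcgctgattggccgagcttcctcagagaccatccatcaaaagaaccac

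The full site began 51 bases before the upstream Cdkn1a start and 195 bases before the Ccng1 start. An exact single 10-base motif was found in the windows of 4 members (Cdkn1a, Ccng1, Mdm2 and Sesn1) and in 7.13% of all windows. A different element, the cyclic AMP response element palindrome TGACGTCA, which overlaps no p53 match here and was searched on both strands, was in the windows of Plk2 and Btg2 and in 1.55% of all windows. These windows are shown because Plk2 and Btg2 are also known as genes induced by neuronal activity or growth factors. They lie at chr13:110394794-110395043 on the + strand for Plk2 and at chr1:134079156-134079405 on the - strand for Btg2, and capitals mark the palindrome.
Plk2: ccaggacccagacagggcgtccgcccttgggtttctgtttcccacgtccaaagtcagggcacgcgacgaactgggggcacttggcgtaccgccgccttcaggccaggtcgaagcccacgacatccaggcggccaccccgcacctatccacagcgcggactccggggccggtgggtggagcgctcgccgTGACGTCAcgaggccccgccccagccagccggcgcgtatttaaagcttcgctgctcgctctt
Btg2: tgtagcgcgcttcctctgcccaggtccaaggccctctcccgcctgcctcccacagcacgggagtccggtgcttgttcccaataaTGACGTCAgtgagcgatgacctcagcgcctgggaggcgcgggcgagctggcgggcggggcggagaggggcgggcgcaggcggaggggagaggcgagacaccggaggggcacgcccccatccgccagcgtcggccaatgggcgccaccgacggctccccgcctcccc
These matches describe letters only, and p53 sites that lie farther away or in introns were not searched.

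Of the 8 members, 4 rose with ONCM (Cdkn1a, Phlda3, Plk2 and Trp53inp1), 1 fell (Sesn1), and Mdm2, Ccng1 and Btg2 did not pass the test. "Rose" and "fell" are used for genes with an adjusted p under 0.05 by edgeR's quasi-likelihood test with Benjamini-Hochberg adjustment over all 20354 genes. By the same rule 48.3% of all genes tested were called (23.9% higher and 24.4% lower), so a count of 5 in 8 members lies near this background. With a filter of 1 CPM in 3 libraries 8995 of 15461 genes and 5 of 8 members were called. The share of all genes is larger there, so shares set beside 48.3% depend on how many low-count genes are included. The median log2 fold change of the members was 0.10, against -0.0021 over all genes tested. Cdkn1a had the largest change among the members, and 13.5% of all genes tested had a change of larger size. On the log2(TPM + 1) scale, where TPM (the deposited length-scaled unit) is the level per transcript length, 3 members rose and 2 fell, and over all genes 3631 rose and 5628 fell in place of 4869 and 4960.

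Library totals ran from 53770820 to 64477014 counts, and the members had between 446 and 23192 reads in a library. Sex-linked transcripts differed between the groups although all samples are labelled female, with Xist at 0.53 ± 0.053 CPM (the count scaled to library size; SD, n = 3) with PBS and 478 ± 55.8 CPM with ONCM, and Y-linked Ddx3y higher with PBS (60.5 ± 2.17 CPM) than with ONCM (16.1 ± 0.933 CPM). Sex or source of the cells and treatment therefore cannot be told apart for any gene described here. Of 16 macrophage markers 15 rose, and their summed level went from 54.2 to 58.2 CPM with PBS to 179 to 188 CPM with ONCM. Of 10 fibroblast markers 7 rose and 3 did not pass (413 to 417 CPM and 576 to 598 CPM), and of 10 endothelial markers 6 rose and 4 did not pass (193 to 198 CPM and 227 to 237 CPM). Glia markers stood at 3665 to 3736 CPM and 3806 to 3965 CPM with 4 raised and 1 lowered of 12. Sensory neuron markers were abundant, at 20888 to 21540 CPM with PBS and 18638 to 19719 CPM with ONCM, with 3 raised and 10 lowered of 15. The called shares were 93.8% of macrophage, 70% of fibroblast, 60% of endothelial, 41.7% of glia and 86.7% of sensory neuron markers. Over all genes tested the share was 48.3%. None of the defining markers Csf1r, Col1a1, Cdh5, Sox10 and Tubb3 was at 0. The part of these cell types in the results below was not tested, and fewer cells of a type cannot be told apart from less RNA per cell in bulk libraries.

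**Figure D1:**
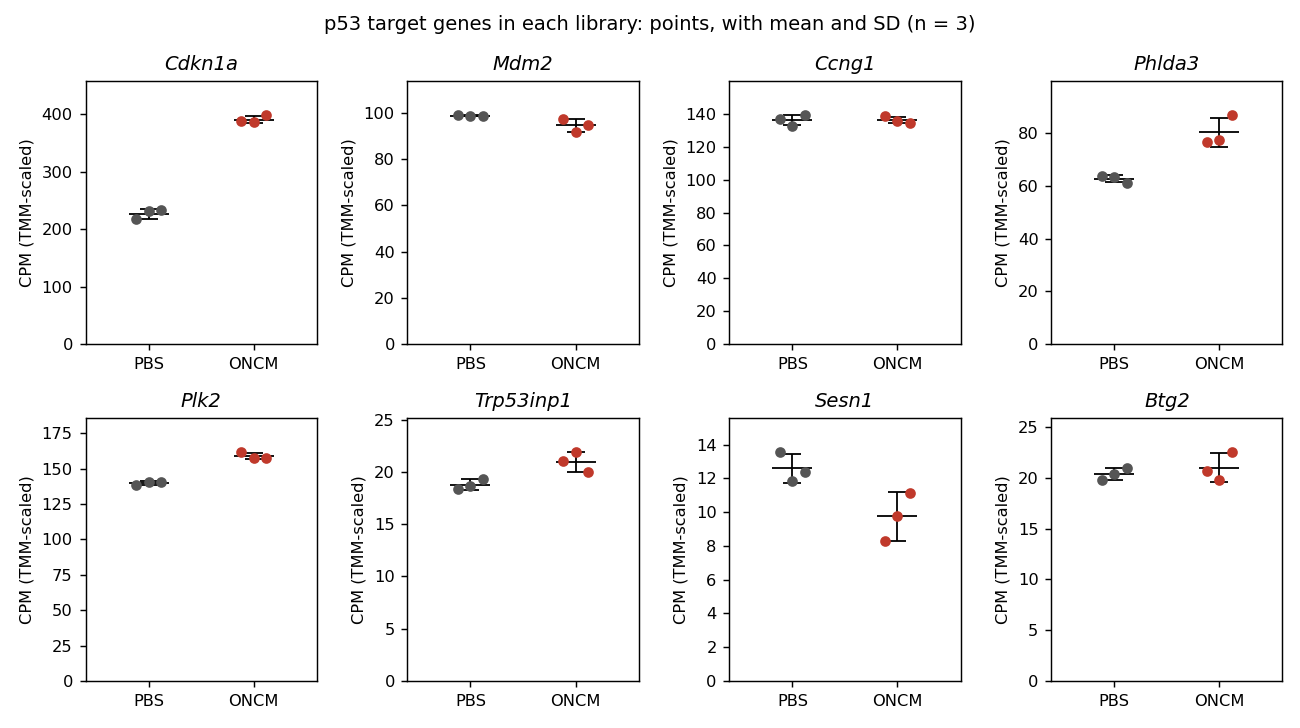
TMM-scaled CPM (y axis, from 0) of the 8 p53 target genes in each PBS and ONCM library (x axis). Points are libraries and bars are the mean and SD of 3. Cdkn1a moved from 218 to 233 CPM with PBS up to 386 to 398 CPM with ONCM, Sesn1 was lower with ONCM, and Ccng1 and Btg2 overlapped between the groups.

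Levels between genes were compared per transcript length, in TPM. With PBS the order was Cdkn1a (301 ± 9.12 TPM, SD, n = 3), Plk2 (127 ± 0.434), Phlda3 (109 ± 3.17), Ccng1 (99.2 ± 2.22), Mdm2 (77.0 ± 0.601), Btg2 (16.8 ± 0.353), Sesn1 (11.7 ± 0.946) and Trp53inp1 (8.80 ± 0.167), and no neighbours in this order overlapped. Cdkn1a was thus already the most abundant member in control cultures, and only 2.72% of all genes tested had a higher mean TPM there. With ONCM it stood at 497 ± 1.68 TPM. Plk2 (138 ± 3.12) and Phlda3 (133 ± 7.53) then overlapped, as did Trp53inp1 (9.42 ± 0.563) and Sesn1 (8.64 ± 1.03), which had changed places. Summed over the 8 members the level went from 750 ± 5.08 to 970 ± 5.20 TPM, and Cdkn1a alone made up 89.2% of that difference.

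Cdkn1a (Entrez 12575, chromosome 17, 29090979 to 29100722) encodes p21, the inhibitor of cyclin-dependent kinases through which p53 stops the cell cycle. The PBS libraries held 218, 231 and 233 CPM, and the ONCM libraries 389, 386 and 398 CPM. The groups were far apart, and the spread within each was small beside the gap. The rise was 1.72-fold, or 0.78 on the log2 scale (SE 0.03, 95% interval 0.72 to 0.85, edgeR adjusted p = 4.38e-13), and it passed in all 14 alternative settings tried. The genes whose values over the 6 libraries lay closest to Cdkn1a, by Euclidean distance of centred log2 CPM among 9754 genes, were Tuba1b (0.054), Stmn2 (0.054) and Laptm4a (0.064). Tuba1b encodes an alpha tubulin, Stmn2 a microtubule regulator of growing axons and Laptm4a a lysosomal membrane protein. Their log2 fold changes were 0.75, 0.79 and 0.80. With so little spread within groups, the distance mostly reflects a change of similar size, and shared regulation was not tested.

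Ccng1 and Mdm2, which feed back on p53, did not follow Cdkn1a. Ccng1 (Entrez 12450, chromosome 11, 40748552 to 40755309) encodes cyclin G1, which directs a phosphatase to Mdm2. It had 137, 133 and 139 CPM with PBS and 138, 136 and 134 CPM with ONCM, so the ranges overlapped throughout. The estimated log2 fold change was -0.00074 (SE 0.03, 95% interval -0.068 to 0.066, edgeR adjusted p = 0.987). Ccng1 is the other member with a p53 full site in its window, and its interval does not reach that of Cdkn1a.

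Mdm2 (Entrez 17246, chromosome 10, 117688875 to 117710758) encodes the ubiquitin ligase that marks p53 for destruction. The PBS libraries held 98.8, 98.6 and 98.7 CPM, and the ONCM libraries 97.4, 91.8 and 94.6 CPM. The ONCM libraries were all slightly lower and did not overlap the PBS range, as was the case for 55.6% of all genes tested. The log2 fold change of -0.06 (SE 0.03, 95% interval -0.13 to 0.0097) did not pass (edgeR adjusted p = 0.148). On the log2(TPM + 1) scale it was -0.10 and passed (limma adjusted p = 0.0397). On that scale the median over all genes tested was itself lower, at -0.043 in place of -0.0021.

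Because scaling cancels within a library, reads per Mdm2 read were also compared. There were 2.20, 2.34 and 2.36 Cdkn1a reads per Mdm2 read with PBS and 3.99, 4.21 and 4.21 with ONCM. For Ccng1 the ratio was 1.39, 1.35 and 1.41 with PBS and 1.42, 1.48 and 1.42 with ONCM. Cdkn1a and Mdm2 thus changed unequally under any scaling of the libraries, and the mean Ccng1 ratio went from 1.38 to 1.44 where that of Cdkn1a went from 2.30 to 4.14.

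**Figure D2:**
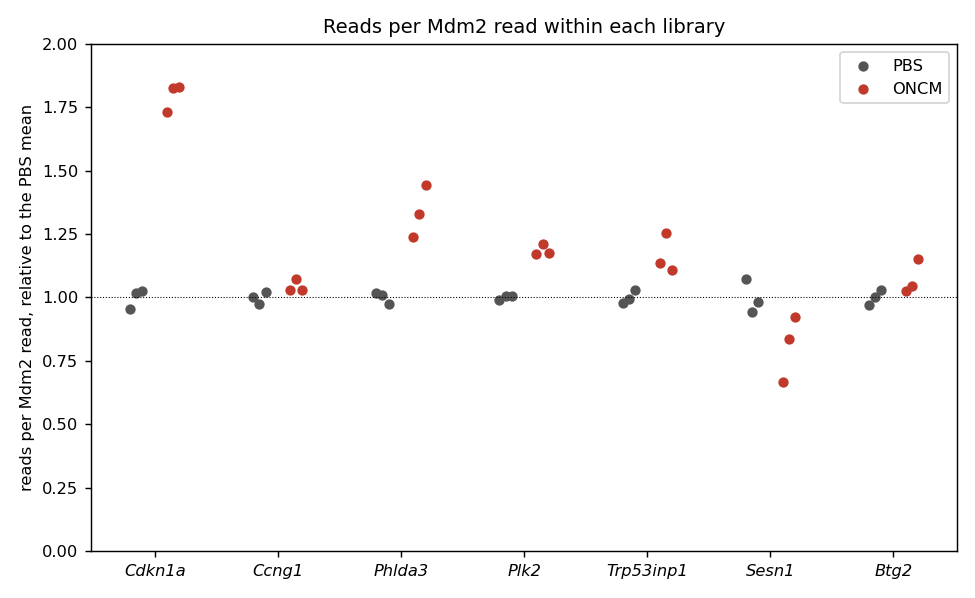
Reads of each other member per Mdm2 read (y axis, divided by the mean of the PBS libraries) in the PBS (grey) and ONCM (red) libraries, 1 point per library. Cdkn1a stood highest with ONCM (3.99 to 4.21 reads per Mdm2 read, against 2.20 to 2.36 with PBS), and Sesn1 lay below its PBS values.

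Phlda3 and Plk2 rose by smaller amounts. Phlda3 (Entrez 27280, chromosome 1, 135766085 to 135769134) encodes a pleckstrin-homology protein that competes with the kinase Akt for membrane lipids. Its values were 63.9, 63.3 and 61.3 CPM with PBS and 76.8, 77.6 and 86.8 CPM with ONCM. ONCM replicate 3 was the highest, and every ONCM library lay above every PBS library. The log2 fold change was 0.36 (SE 0.04, edgeR adjusted p = 2.21e-06), a rise of 1.28-fold.

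Plk2 (Entrez 20620, chromosome 13, 110395044 to 110400844) encodes polo-like kinase 2, a p53 target that neurons also induce with activity. It had 139, 141 and 141 CPM with PBS and 162, 158 and 158 CPM with ONCM. The replicates agree closely, so a rise of 1.14-fold passed (log2 fold change 0.18, SE 0.03, edgeR adjusted p = 5.94e-05). Of all genes tested, 58.1% had a change of larger size.

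Trp53inp1 and Sesn1, a pair of stress genes with the lowest TPM among the members, moved apart. Trp53inp1 (Entrez 60599, chromosome 4, 11156441 to 11174379) encodes a nuclear stress protein that acts in p53 signalling and autophagy. It was counted at 18.4, 18.6 and 19.3 CPM with PBS and 21.05, 21.9 and 19.95 CPM with ONCM, without overlap. The estimate of 0.16 on the log2 scale (SE 0.06, edgeR adjusted p = 0.0247) was lost without PBS replicate 1 (adjusted p = 0.104), PBS replicate 2 (0.0791), ONCM replicate 1 (0.0576) or ONCM replicate 2 (0.123). It was also lost with DESeq2 (adjusted p = 0.0805) and on log2(TPM + 1) with limma (0.09, adjusted p = 0.293).

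Sesn1 (Entrez 140742, chromosome 10, 41810574 to 41908436) encodes sestrin 1, a restraint on the growth kinase complex mTORC1, and was the only member that fell. Its values were 13.6, 11.9 and 12.4 CPM with PBS and 8.29, 9.79 and 11.2 CPM with ONCM. The ONCM libraries were spread widely (SD 1.43 around a mean of 9.75 CPM) but all lay below the PBS libraries. The fall was to 0.773 of the PBS level (log2 fold change -0.37, SE 0.09, 95% interval -0.56 to -0.18, edgeR adjusted p = 0.00242).

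Btg2 (Entrez 12227, chromosome 1, 134074865 to 134079155) encodes an antiproliferative protein that recruits the mRNA deadenylase complex. It had 19.8, 20.4 and 20.97 CPM with PBS and 20.7, 19.8 and 22.6 CPM with ONCM, with overlap. The log2 fold change was 0.04 (SE 0.06, 95% interval -0.08 to 0.16, edgeR adjusted p = 0.59). Plk2 and Btg2, the members with the cyclic AMP element in their windows, thus fell on different sides of the threshold, and the difference between their changes was not tested.

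Each member has paralogues, some of which are p53 targets themselves (Plk3, Btg1, Btg3 and Sesn2 also stand in the lists of other targets below). Of 18 tested paralogues 3 rose, 6 fell and 9 did not pass, a called share of 50% beside 48.3% of all genes, with a median log2 fold change of -0.07. The cell cycle inhibitor Cdkn1b (p27) fell from 29.0 ± 0.856 to 25.3 ± 1.18 CPM (SD, n = 3; log2 fold change -0.20, SE 0.05, edgeR adjusted p = 0.00353) while Cdkn1a rose. Cdkn1c (p57) stood near 1 CPM, with a log2 fold change of 0.24 (SE 0.25), and did not pass. Ccng2, cyclin G2, fell from 11.1 ± 0.668 to 7.87 ± 0.139 CPM, and Ccni, cyclin I, from 192 ± 3.32 to 158 ± 2.09 CPM, whereas Ccng1 did not pass.

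The Phlda and Btg families held a rise each outside the members. Phlda1 rose by 0.41 on the log2 scale (SE 0.04), from 129 ± 0.883 to 171 ± 10.2 CPM, next to 0.36 for Phlda3. Btg1 rose from 45.6 ± 2.85 to 57.7 ± 2.68 CPM, whereas Btg3, Tob1 and Tob2 had log2 fold changes of 0.04, -0.04 and -0.10 and did not pass. Among the polo-like kinases Plk3 fell from 32.6 ± 1.62 to 24.9 ± 1.12 CPM and Plk5, a kinase-deficient member, from 1.59 ± 0.331 to 0.74 ± 0.172 CPM, while Plk4 (0.15, SE 0.10) did not pass. Sesn2 stayed at 38.2 ± 2.44 and 38.4 ± 1.67 CPM (edgeR adjusted p = 0.894).

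Some of these calls changed with a left-out library or another setting. Sesn3 had a value of -0.16 on the log2 scale (SE 0.06, edgeR adjusted p = 0.0395), lost without PBS replicate 1 (adjusted p = 0.0811), PBS replicate 2 (0.126), ONCM replicate 1 (0.0811) or ONCM replicate 3 (0.132), and with DESeq2 (0.14). Trp53inp2 rose by 0.09 (SE 0.03, edgeR adjusted p = 0.0261), a call lost without PBS replicate 1 (0.145), PBS replicate 2 (0.0721) or ONCM replicate 2 (0.0641). The Trp53inp2 call was also lost with no filter on low counts (adjusted p = 0.0538) and on log2(TPM + 1), where the value was 0.033 (limma adjusted p = 0.427). Mdm4, the Mdm2 relative that masks p53, had 0.11 (SE 0.04, edgeR adjusted p = 0.0537) and passed without ONCM replicate 3 (0.16, adjusted p = 0.00227). With all 6 libraries Mdm4 also passed under DESeq2 size factors (0.11, edgeR adjusted p = 0.0432), with a filter of 1 CPM in 3 libraries (0.12, adjusted p = 0.0277) and with the replicate block (0.11, adjusted p = 0.0478). Phlda2 and Plk1 were under 1 CPM and did not pass, Phlda2 passing only without ONCM replicate 2 (-1.53, edgeR adjusted p = 0.034).

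**Figure D3:**
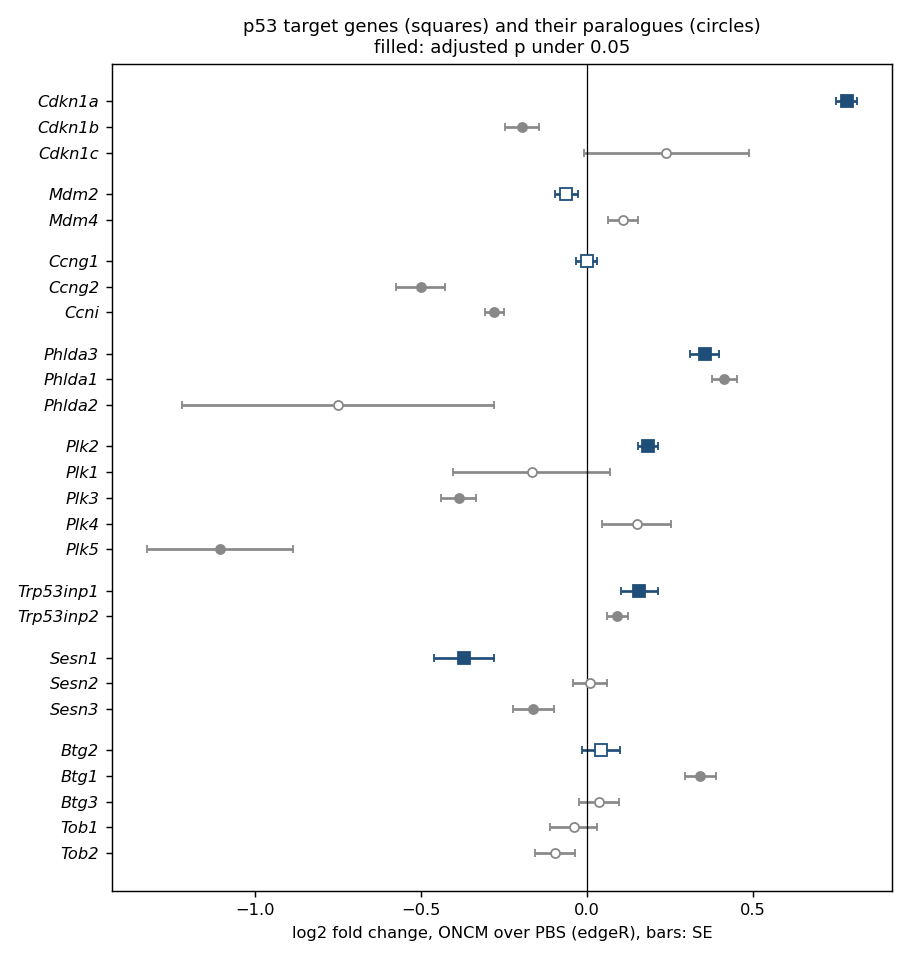
Log2 fold change of ONCM over PBS (x axis, edgeR) for the 8 members (squares) and their tested paralogues (circles), grouped by family. Bars are the SE of 3 against 3 libraries and filled symbols have an adjusted p under 0.05. Cdkn1a (0.78) stood apart from Cdkn1b (-0.20), and Ccng1 lay at 0 between its fallen relatives and the raised members.

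The p53 gene and its regulators moved both ways. Trp53 itself rose 0.29 on the log2 scale (SE 0.04, edgeR adjusted p = 9.63e-06), from 45.2 ± 1.7 CPM with PBS to 55.3 ± 1.34 CPM with ONCM (SD, n = 3). Of 23 tested genes of this list 7 rose, 8 fell and 8 did not pass, a called share of 65.2% beside 48.3% of all genes. Under the filter of 1 CPM in 3 libraries 16 of 23 were called, beside 8995 of 15461 genes. Daxx, a p53 and Mdm2 binding partner, rose from 31.2 ± 0.557 to 45.8 ± 2.53 CPM, and Rchy1, another p53 ubiquitin ligase, from 23.95 ± 0.243 to 29.8 ± 1.66 CPM. Trp63, a p53 relative of epithelia, rose from 0.759 ± 0.0701 to 2.32 ± 0.38 CPM. Ppp1r13b, which steers p53 to death genes, fell from 44.5 ± 0.434 to 32.3 ± 0.7 CPM, and the DNA damage kinase gene Atr fell from 48.7 ± 1.12 to 37.7 ± 1.75 CPM. Transcript levels do not measure p53 protein, which is set largely by degradation.

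Other p53 targets, from lists chosen by known role, gave 25 raised, 17 lowered and 23 not passing of 65, a called share of 64.6% beside 48.3% of all genes. Their median log2 fold change was 0.01, and on log2(TPM + 1) 18 rose and 20 fell. Under the filter of 1 CPM in 3 libraries 41 of 64 were called, beside 8995 of 15461 genes. The death genes described next had 10 calls of 17 under that filter, near the share of all genes there. By role, of 17 death genes 10 rose and 7 did not pass, a called share of 58.8% beside 48.3% of all genes (9 rose and 1 fell on the TPM scale, where 3631 of all genes rose and 5628 fell), with a median of 0.22. Trp53i11, a p53-inducible membrane protein gene, rose most in this list, by 2.94 on the log2 scale (SE 0.07, edgeR adjusted p = 3.12e-16), and reached 32.4 ± 0.909 CPM against 4.23 ± 0.404 CPM with PBS. Pmaip1, which encodes the BH3-only protein Noxa, rose from 12.1 ± 0.769 to 34.2 ± 1.26 CPM. Apaf1, the scaffold of the apoptosome, the death receptor gene Tnfrsf10b and the nuclease gene Aen rose by 0.44, 0.42 and 0.18 on the log2 scale. Eda2r, a receptor of the tumour necrosis factor family, rose by 0.41, a call lost on log2(TPM + 1) (limma adjusted p = 0.313). Bbc3, which encodes the BH3-only protein Puma, was not among the raised genes, at 7.18 ± 0.395 and 6.77 ± 0.482 CPM (edgeR adjusted p = 0.467), and is named here after its value was seen. The summed macrophage markers went from at most 58.2 to at least 179 CPM, and their part in these rises was not tested.

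Of 16 arrest and checkpoint targets 8 rose and 4 fell, a called share of 75% beside 48.3% of all genes. On log2(TPM + 1) 5 rose and 4 fell, where 3631 of all genes rose and 5628 fell. When 1 CPM in 3 libraries was required, 8 rose and 4 fell of 15 tested, beside 8995 called among 15461 genes. Gadd45a, a stress sensor that is also an injury-induced gene of sensory neurons, went up by 0.85 on the log2 scale (SE 0.03, edgeR adjusted p = 3.98e-13), from 92.1 ± 1.53 to 166 ± 5.54 CPM, next to 0.78 for Cdkn1a. Rprm, a G2 arrest gene, and Ier5, an immediate early gene, rose by 0.36 and 0.35, and Cdc42se1 by 0.29. Fbxw7, the substrate receptor of a ubiquitin ligase for cell cycle proteins, fell from 72.3 ± 0.656 to 56.0 ± 1.07 CPM, and Plk3 fell as given above.

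Of 11 tested DNA repair targets 1 rose and 5 fell, a called share of 54.5% near the 48.3% of all genes, with a median log2 fold change of -0.21. On log2(TPM + 1), where falls outnumbered rises over all genes (5628 and 3631), 1 rose and 6 fell. When 1 CPM in 3 libraries was required, 2 rose and 5 fell of 11, beside 8995 called among 15461 genes. Rrm2b, the p53-controlled ribonucleotide reductase subunit, fell from 48.3 ± 0.609 to 40.8 ± 1.94 CPM. Ddb2, the damage sensor of nucleotide excision repair, and the Fanconi anaemia genes Fanca and Fancc had log2 fold changes of -0.56, -0.77 and -0.32. Pcna, the replication clamp, rose from 61.3 ± 1.04 to 70.4 ± 1.71 CPM.

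Metabolic and redox targets were divided, with 6 raised and 8 lowered of 21, a called share of 66.7% beside 48.3% of all genes. On log2(TPM + 1) 3 rose and 9 fell, against 3631 and 5628 of all genes. When 1 CPM in 3 libraries was required, 6 rose and 6 fell of 21, near the share of 8995 called among 15461 genes. Ephx1, microsomal epoxide hydrolase, fell furthest, from 118 ± 3.95 to 49.5 ± 1.22 CPM (log2 fold change -1.25, SE 0.04, edgeR adjusted p = 6.88e-15). Gls2, the p53-induced glutaminase, fell from 9.76 ± 0.475 to 6.15 ± 0.247 CPM, and Lpin1 and Ulk1, of lipid synthesis and autophagy, fell by 0.23 and 0.20 on the log2 scale. Steap3, an iron reductase, and Pltp, a phospholipid transfer protein, rose by 0.44 and 0.48.

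**Figure D4:**
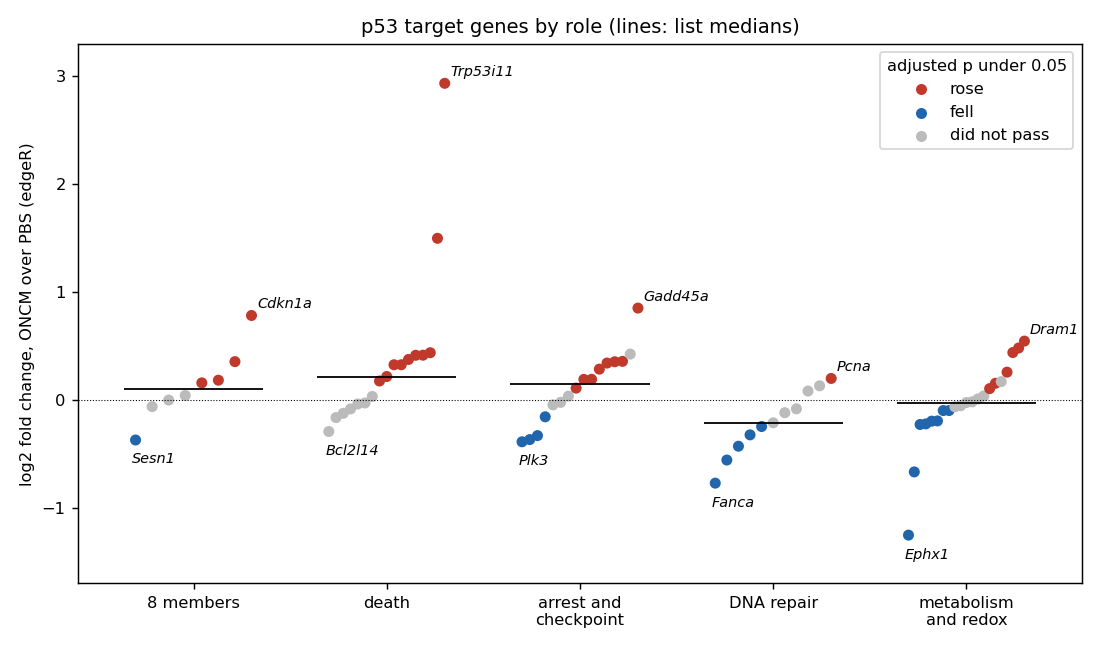
Log2 fold change of ONCM over PBS (y axis, edgeR) of the 8 members and of the other p53 targets grouped by role (x axis), 1 point per gene, with lines at the list medians. Red and blue points rose and fell at an adjusted p under 0.05, and grey points did not pass. Death genes reach from Bcl2l14 (-0.29) to Trp53i11 (2.94), and the DNA repair median lies at -0.21.

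Genes with the p53 full site in their window were looked at irrespective of any list. Of the 25 such genes 10 passed the filter on low counts, and 4 rose, 2 fell and 4 did not pass. The called share was 60%, beside 48.3% of all genes. Gm32432 rose from 1.09 to 6.83 CPM (log2 fold change 2.64) and Bco1 from 0.555 to 0.92 CPM (0.73). Gm29797 fell from 1.35 to 0.632 CPM (log2 fold change -1.10). Besides Cdkn1a, Rps27l, a ribosomal protein relative known as a p53 target and named after its value was seen, rose by 0.17 on the log2 scale (SE 0.07, edgeR adjusted p = 0.0446), from 21.3 to 23.9 CPM. Sptbn4, a spectrin of the axon initial segment, fell from 62.0 to 47.0 CPM, and Mthfd1, an enzyme of folate metabolism, stood at 44.9 and 45.5 CPM and did not pass. Genes with an exact single 10-base motif were called in 51.6% of 1141 tested cases (302 higher and 287 lower), near the 48.3% of all genes.

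Downstream of p21, cell cycle genes that the DREAM repressor complex silences were at low level in these cultures. Their summed level was 96.0 to 98.2 CPM with PBS and 97.0 to 103 CPM with ONCM over 29 tested genes, and 16 of the 30 reached 1 CPM in 3 libraries. Of the 29, 7 rose, 3 fell and 19 did not pass, a called share of 34.5% beside 48.3% of all genes. By DESeq2 3 were raised and 2 lowered of 30 tested, beside 8228 called of 25994 genes. On log2(TPM + 1) 3 rose and 3 fell of 29, beside 9259 called of 20354 genes. Under the filter of 1 CPM in 3 libraries 8 of 16 were called, beside 8995 of 15461 genes. The replication helicase genes Mcm6 and Mcm3 rose, Mcm6 from 9.82 ± 0.642 to 16.4 ± 1.0 CPM and Mcm3 from 7.10 ± 0.242 to 9.42 ± 0.782 CPM. E2f1, a driver of entry into S phase, fell from 31.3 ± 0.424 to 22.2 ± 1.41 CPM, and the proliferation marker Mki67 from 4.21 ± 0.173 to 2.64 ± 0.675 CPM. Cdc25c, a mitotic phosphatase, went from 0.164 ± 0.0823 to 0.491 ± 0.107 CPM. Foxm1, a mitotic transcription factor, rose by 0.44 (edgeR adjusted p = 0.00713), a call lost with DESeq2 (adjusted p = 0.0539) and on log2(TPM + 1) with limma (0.0502). Of the 29 genes 20 had a positive log2 fold change, beside 10112 of all 20354 genes tested. The list median was 0.24, against -0.0021 over all genes tested. On log2(TPM + 1) the median was 0.08, against -0.043 over all genes tested. The called genes went both ways. Most estimates lay on the side of a rise, but 19 of the 29 did not pass and many were near the floor.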

How the data were processed

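Raw read counts per gene for 6 libraries were deposited by the authors and were used as deposited. TPM values, deposited by the authors, served for levels per length and as an alternative scale. The FPKM columns deposited by the authors were not used. Per the submitters' processing notes the genome build is mm10. Which aligner, counter, annotation and strand setting were used is not given in the sources used here. Genes with near-identical copies may therefore share reads. Coordinates and promoter windows come from RefSeq tables of GRCm38.p6, the same assembly as mm10. All 8 members matched the gene table by Entrez number, and no other gene of that table overlaps a member.

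The main test was edgeR 4.0.16 in R 4.3.3 (filterByExpr, TMM, robust quasi-likelihood fit, no covariate). The SE is the size of the log2 fold change divided by the square root of F. Alternatives were scaling, filter, DESeq2 1.42.0, limma 3.58.1 (limma-trend) on log2(TPM + 1) and log2(TPM + 0.1), a replicate block, leaving out each library, and leaving out chromosomes X, Y and MT. On counts simulated for this comparison (19647 genes tested, 50 changed at each size) the fit recovered 68% of 1.25-fold, 86% of 1.5-fold, 96% of 2-fold and 100% of 4-fold changes, with 10 false calls. A far smaller share of genes changed there than the 48.3% called in the data, so these rates need not hold for the data. Replicates of a group differed beyond sampling noise (chi-square per degree of freedom 2.76 to 7.09 over genes with at least 20 counts), so all 6 were kept.

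Members and lists were chosen with earlier results of these data known, and the promoter motifs after the results were seen. Named genes are the members, Trp53, Mdm4, paralogues with a mean over 1 CPM, up to 6 genes of each p53-related list with the smallest p, and the 3 genes nearest to Cdkn1a. Outside this rule the paralogues Phlda2 and Plk1, the death genes Bbc3 and Bcl2l14, and genes with the p53 full site are also named. Cell type markers are given as counts and sums, except Cdh19 under the replicate block, and Xist and Ddx3y stand for the sex-linked transcripts. A single gene that this rule selects is not reported here. Some genes stand in 2 lists (Mdm4, Plk3, Sesn2, Btg1, Btg3, Chek1, Plk1 and Plk4).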

Additional observations from a re-analysis of the deposited data

How the results depend on the processing

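Of 8 members, 6 kept their call and side of the threshold in all 14 alternatives, Trp53inp1 and Mdm2 being the exceptions given in the report. Over these alternatives the log2 fold change ran from 0.72 to 0.80 for Cdkn1a, 0.29 to 0.39 for Phlda3, 0.12 to 0.19 for Plk2 and -0.48 to -0.27 for Sesn1. Without chromosomes X, Y and MT 5 members were called as before, though autosomal effects of sex or cell source stay in that fit. Of 91 other named genes 81 kept their call in all alternatives. The count of p21 and DREAM genes called moved from 10 to 5 with DESeq2 and to 6 on log2(TPM + 1) and on log2(TPM + 0.1). Over all genes the count also went down, from 9829 to 8228, 9259 and 9190 in these settings. The cause was not tested.

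Pairing of libraries by replicate number was not seen (correlations of deviations from the group means for equal numbers -0.0453, -0.0124 and 0.00167). With 3 libraries a group this check cannot show that no pairing existed. With the replicate block 9597 genes were called in place of 9829, the members' calls did not change, and of the other named genes Mdm4 (0.11, edgeR adjusted p = 0.0478) and the glia marker Cdh19 (-0.14, adjusted p = 0.0331) passed. At the depth of Sesn1 (446 to 877 reads in a library) the 95% interval of the log2 fold change ran from -0.56 to -0.18, wider than the interval of any other member.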
